A study of Homo sapiens with 28 samples.

Results

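The 50 genes described here act in mitotic entry, at the kinetochore, on the spindle and in cytokinesis. They were chosen by gene symbol, and all 50 symbols were found among the 60286 genes listed in the count tables. All 50 passed the filter on low counts that left 16325 genes for testing. The genes fall into 7 roles: 11 act in mitotic entry, 9 in the spindle checkpoint and anaphase, 8 at the kinetochore and centromere, 4 form the chromosomal passenger complex, 8 act in spindle assembly, 8 in the midzone and cytokinesis, and 2, TOP2A and MKI67, serve chromosome structure.

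Proliferating cells switch these genes on together late in the cell cycle and switch them off again after division. Cyclins A and B activate CDK1 to drive entry into mitosis, kinetochore and checkpoint proteins hold anaphase back until every chromosome is attached, and the anaphase-promoting complex with its activator CDC20 then releases the sister chromatids. Many of their promoters carry CCAAT boxes and the cell cycle genes homology region (CHR), at which the MuvB complex acts with B-MYB and FOXM1, so their joint level is widely used as a readout of proliferation.

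RNA was sequenced from HT-1080, an established human fibrosarcoma line that the labels give as wild type, after overnight treatment. There were 7 groups of 4 cultures, which the design text calls independent. Controls received the vehicle DMSO. Single agents were RSL3 at 10 nM, LA (linoleic acid) at 80 µM, CLA18:2 (its conjugated isomer) at 80 µM and CLA18:3 at 5 µM, and both pairs of RSL3 with an 80 µM acid were given too, written RSL3+LA and RSL3+CLA18:2. RSL3 blocks GPX4, which detoxifies lipid hydroperoxides, and so can trigger ferroptosis. LA and CLA18:2 are isomers whose pair of double bonds is separated by a methylene group in LA and conjugated in CLA18:2, and CLA18:3 is a conjugated acid with 3 double bonds. All cells are of 1 line, and the labels name no batch, so a batch shared by the 4 libraries of a group cannot be told apart from the treatment.

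Library totals ran from 16226270 to 24286824 counts. Markers of mesenchymal and fibrosarcoma cells summed to between 17100 and 19900 CPM (CPM, counts per 1000000 reads counted, scaled by library total and a normalization factor), although the fibroblast surface marker THY1 reached no more than 0.824 CPM and S100A4, of the same list, no more than 1.57. Epithelial markers summed to at most 6.52 CPM and blood markers to at most 1.4 CPM in any library. Replicates of DMSO varied least, with a biological coefficient of variation of 4.5%, and those of CLA18:3 and RSL3+CLA18:2 most, at 20% and 15.3%, while the other groups had 7.31% to 9.02%. The share of counts from mitochondrially encoded mRNA was 1.4 ± 0.1% in DMSO, 0.807 ± 0.543% in CLA18:2 and lowest in RSL3+CLA18:2, at 0.641 ± 0.693% (SD, n = 4). Of the members, 3 lay near the detection floor and are reported as uncertain. NUSAP1 had 0 to 16 counts per library, PRC1 2 to 85 and SPC25 22 to 236. In GENCODE release 29, NUSAP1 shares 62.2% of its exon length with AC087721.2, and PRC1 shares 57.6% with AC068831.7, each on the same strand. Whether reads were lost to those overlaps was not tested.

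Promoter sequence was available from RefSeq (GRCh38.p14) for 42 of the 50 genes. In the 250 bases before the RefSeq start, a CHR, searched as TTTGAA or TTCGAA on both strands, occurred in 24 of these 42 promoters (57.1%), against 9.72% of 10987 promoters of tested genes and 14.6% of all 27305. A CCAAT box, searched as CCAAT on both strands, occurred in 33 of 42 (78.6%), against 34.8% and 33.0%. An E2F motif, TTTCGCGC or TTTGGCGC on both strands, occurred in 1 of 42 (2.38%), against 1.63% and 0.996%. These matches are descriptions of letters, not of bound sites. The stretches below lie upstream of both the RefSeq and the GENCODE start. They show how the motifs stand in 3 members that fell with CLA18:2 (CDC20, ECT2 and TOP2A), in the member that rose most with CLA18:3 (CKS2), and in a member that passed the test in neither direction with CLA18:2 (KIF14). Capitals mark CHR and CCAAT letters, and either may be read on the opposite strand.
CDC20, chr1:43358805-43358954, plus strand: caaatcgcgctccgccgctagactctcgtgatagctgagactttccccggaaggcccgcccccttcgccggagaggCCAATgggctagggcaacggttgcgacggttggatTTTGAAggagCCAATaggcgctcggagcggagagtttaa
ECT2, chr3:172750532-172750681, plus strand: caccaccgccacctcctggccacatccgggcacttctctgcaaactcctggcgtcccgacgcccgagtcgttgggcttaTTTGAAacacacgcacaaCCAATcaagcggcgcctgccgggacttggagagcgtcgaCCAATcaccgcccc
TOP2A, chr17:40417951-40418100, minus strand: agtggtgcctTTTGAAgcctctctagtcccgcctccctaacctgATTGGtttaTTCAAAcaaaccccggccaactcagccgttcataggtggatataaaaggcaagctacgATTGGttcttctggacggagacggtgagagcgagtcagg
CKS2, chr9:89311045-89311194, plus strand: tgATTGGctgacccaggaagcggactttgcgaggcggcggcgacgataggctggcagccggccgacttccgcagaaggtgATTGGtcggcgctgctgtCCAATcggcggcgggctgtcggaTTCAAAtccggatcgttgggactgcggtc
KIF14, chr1:200620752-200620901, minus strand: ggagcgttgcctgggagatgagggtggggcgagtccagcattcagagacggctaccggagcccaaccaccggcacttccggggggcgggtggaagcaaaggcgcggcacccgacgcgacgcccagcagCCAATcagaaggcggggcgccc
In CDC20 a CHR begins 65 bases before the RefSeq start and a CCAAT box 55 bases before it, and in ECT2 the distances are 115 and 97 bases. TOP2A carries 2 CHR and 2 CCAAT boxes in the stretch shown, and CKS2 carries 1 and 3. The KIF14 stretch carries 1 CCAAT box and none of the CHR letters. Members that fell with CLA18:2 did not all carry the CHR letters searched. The 250 bases searched held 1 CCAAT box and neither spelling of the CHR in CCNA2, and none of these letters in NDC80. Both genes fell. Other spellings of the CHR, and bases after the RefSeq start, were not searched, so a CHR there would be missed. Whether the motifs relate to the changes was not tested.

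Levels can be compared between genes per kilobase of exon. In DMSO the highest were CKS2, a small subunit of CDK complexes, at 180 ± 9.08 CPM per kb (SD, n = 4), CDC20 at 157 ± 1.92, the spindle assembly factor TPX2 at 105 ± 1.25 and cyclin B1 (CCNB1) at 102 ± 3.68. The lowest above the 3 uncertain genes was the phosphatase gene CDC25C at 3.71 ± 0.306. Together the 50 genes took 0.692 ± 0.0148% of all counts in DMSO, 0.711 ± 0.031% in RSL3, 0.642 ± 0.0183% in LA, 0.644 ± 0.0217% in RSL3+LA, 0.492 ± 0.00841% in CLA18:2, 0.61 ± 0.0103% in RSL3+CLA18:2 and 0.576 ± 0.0117% in CLA18:3. Their mean log2 CPM, taken relative to the DMSO mean, lay between -0.50 and -0.46 in the 4 CLA18:2 libraries, below every library of every other group, where the lowest was -0.23 in CLA18:3. This mean includes the 3 uncertain genes, of which NUSAP1 had 0 counts in some libraries. How far these genes moved it was not tested. In bulk RNA, fewer cells in mitosis and less RNA per cell cannot be told apart.

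**Figure D1:**
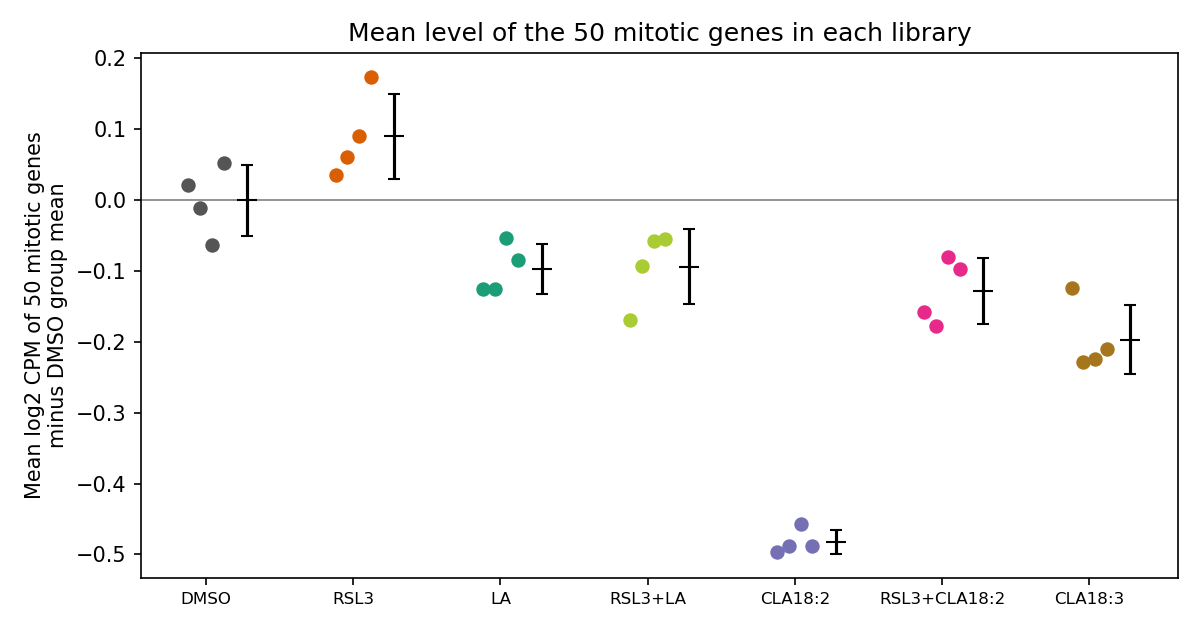
Each point is 1 library, the vertical axis gives the mean log2 CPM of the 50 mitotic genes minus the DMSO group mean, and bars are the group mean ± SD (n = 4). The 4 CLA18:2 libraries sit between -0.50 and -0.46, apart from all others, and the RSL3+CLA18:2 libraries lie between -0.18 and -0.08. The mean includes the near-floor genes NUSAP1, PRC1 and SPC25.

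CLA18:2 against DMSO asks what the conjugated isomer changed on its own. 44 of the 50 mitotic genes fell and 0 rose, with a median log2 fold change of -0.48, while the median over all tested genes was -0.02. Of all 16325 tested genes, 20.1% rose and 18.6% fell in this comparison at an adjusted p under 0.05, the threshold used throughout. All 50 estimates were below 0. Each log2 fold change is given ± SE (n = 4 in each group), and each adjusted p is from the edgeR quasi-likelihood test, corrected over all tested genes by Benjamini-Hochberg.

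All 11 mitotic entry genes fell with CLA18:2. CCNA2, which encodes cyclin A2 (chromosome 4, 121816444 to 121823933, GRCh38), stood at 221, 228, 218 and 219 CPM in DMSO and at 128, 118, 119.9 and 128 in CLA18:2. The groups lay far apart, and the fall of 0.84 ± 0.05 (adjusted p = 9.6e-16) was the largest among the called members. CDK1, the kinase that cyclins A and B activate, stood at 130.0, 122, 129 and 125 CPM in DMSO and 81.8, 78.2, 86.8 and 82.7 in CLA18:2, and fell by 0.62 ± 0.06. CCNB1 fell by 0.36 ± 0.04, from 274, 259.5, 254 and 255 CPM to 201, 200.3, 204 and 206. Of the partner cyclins CCNA2 had the larger estimate, a difference between genes that was not tested. PLK1, the polo-like kinase of mitotic entry, had 266, 262, 260.3 and 273 CPM in DMSO and 177, 184, 184 and 198 in CLA18:2, a fall of 0.51 ± 0.05. The kinase AURKA fell by 0.59 ± 0.05. The transcription factor FOXM1, which drives many of these genes, fell less, by 0.28 ± 0.05, from 207, 202, 206 and 205 CPM to 177, 162, 159 and 176. CKS2 fell by 0.21 ± 0.07 (adjusted p = 0.00874), a call that was lost without CLA18:2 replicate 1 and, at -0.13, with the trend of each library over exon length removed.

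All 9 spindle checkpoint and anaphase genes fell as well. CDC20 (chromosome 1, 43358955 to 43363203) stood at 321, 318, 324 and 314 CPM in DMSO and 195, 202, 195 and 208 in CLA18:2. The groups did not overlap, and CDC20 fell by 0.68 ± 0.04 (adjusted p = 6.7e-15). BUB1B, the checkpoint kinase BUBR1, had 92.2, 92.2, 90.5 and 92.1 CPM in DMSO and 73.1, 70.5, 65.2 and 70.5 in CLA18:2, and fell by 0.39 ± 0.05. ESPL1, the separase that cleaves cohesin, fell by 0.69 ± 0.07, while BUB3, which brings BUB1 and BUBR1 to kinetochores, fell by 0.20 ± 0.03, the smallest fall called. At the kinetochore and centromere 5 of 8 genes fell. NDC80 of the microtubule-binding complex had 62.4, 64.2, 61.7 and 64.8 CPM in DMSO and 45.0, 44.0, 44.4 and 47.7 in CLA18:2, and fell by 0.48 ± 0.06. CENPA, the centromeric histone, fell by 0.59 ± 0.09. The large kinetochore protein gene CENPF was not called, at -0.12 ± 0.09 (adjusted p = 0.274), nor were SGO1, a protector of centromeric cohesin (-0.29 ± 0.12, adjusted p = 0.066), and SPC25.

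The chromosomal passenger complex corrects faulty attachments, and all 4 of its genes fell. The kinase gene AURKB had 102, 104, 99.4 and 91.8 CPM in DMSO and 53.6, 58.9, 57.6 and 61.4 in CLA18:2, a fall of 0.78 ± 0.07 (adjusted p = 6.8e-12). CDCA8, which encodes borealin, fell by 0.84 ± 0.07, BIRC5 (survivin) by 0.57 ± 0.04 and INCENP, the scaffold, by 0.35 ± 0.06. In spindle assembly 7 of 8 genes fell, all but NUSAP1. KIF11, the kinesin that separates spindle poles, had 130.1, 139, 131 and 142 CPM in DMSO and 101, 91.8, 99.98 and 98.3 in CLA18:2, and fell by 0.47 ± 0.06. In the midzone and cytokinesis 6 of 8 fell. KIF23, a kinesin of the midzone, had 142, 148, 146 and 156 CPM in DMSO and 93.6, 92.2, 95.3 and 93.4 in CLA18:2, and fell by 0.66 ± 0.06. The cleavage furrow genes ANLN and ECT2 each fell by 0.67, with an SE of 0.06 and 0.05. KIF14, another kinesin of cytokinesis, was not called, at -0.03 ± 0.07 (adjusted p = 0.774), and its DMSO and CLA18:2 libraries overlapped. PRC1 was not called either.

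TOP2A, the topoisomerase that untangles chromosomes, stood at 333, 332, 304 and 357 CPM in DMSO and 238, 219, 221 and 219 in CLA18:2, and fell by 0.56 ± 0.06. MKI67, the Ki-67 proliferation antigen, fell by 0.45 ± 0.09, from 334, 333, 331 and 417 CPM to 296, 245, 262 and 235. Both genes separated the groups in every library. Across the 4 CLA18:2 libraries the mitochondrial mRNA share ranged from 0.312% to 1.48%, and the mean log2 CPM of the mitotic genes from -0.50 to -0.46. The part of the mitochondrial share in the result was not tested. Leaving out any of the 8 libraries left 44 members called, and without CLA18:2 replicate 1 43 of them were the same.

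**Figure D2:**
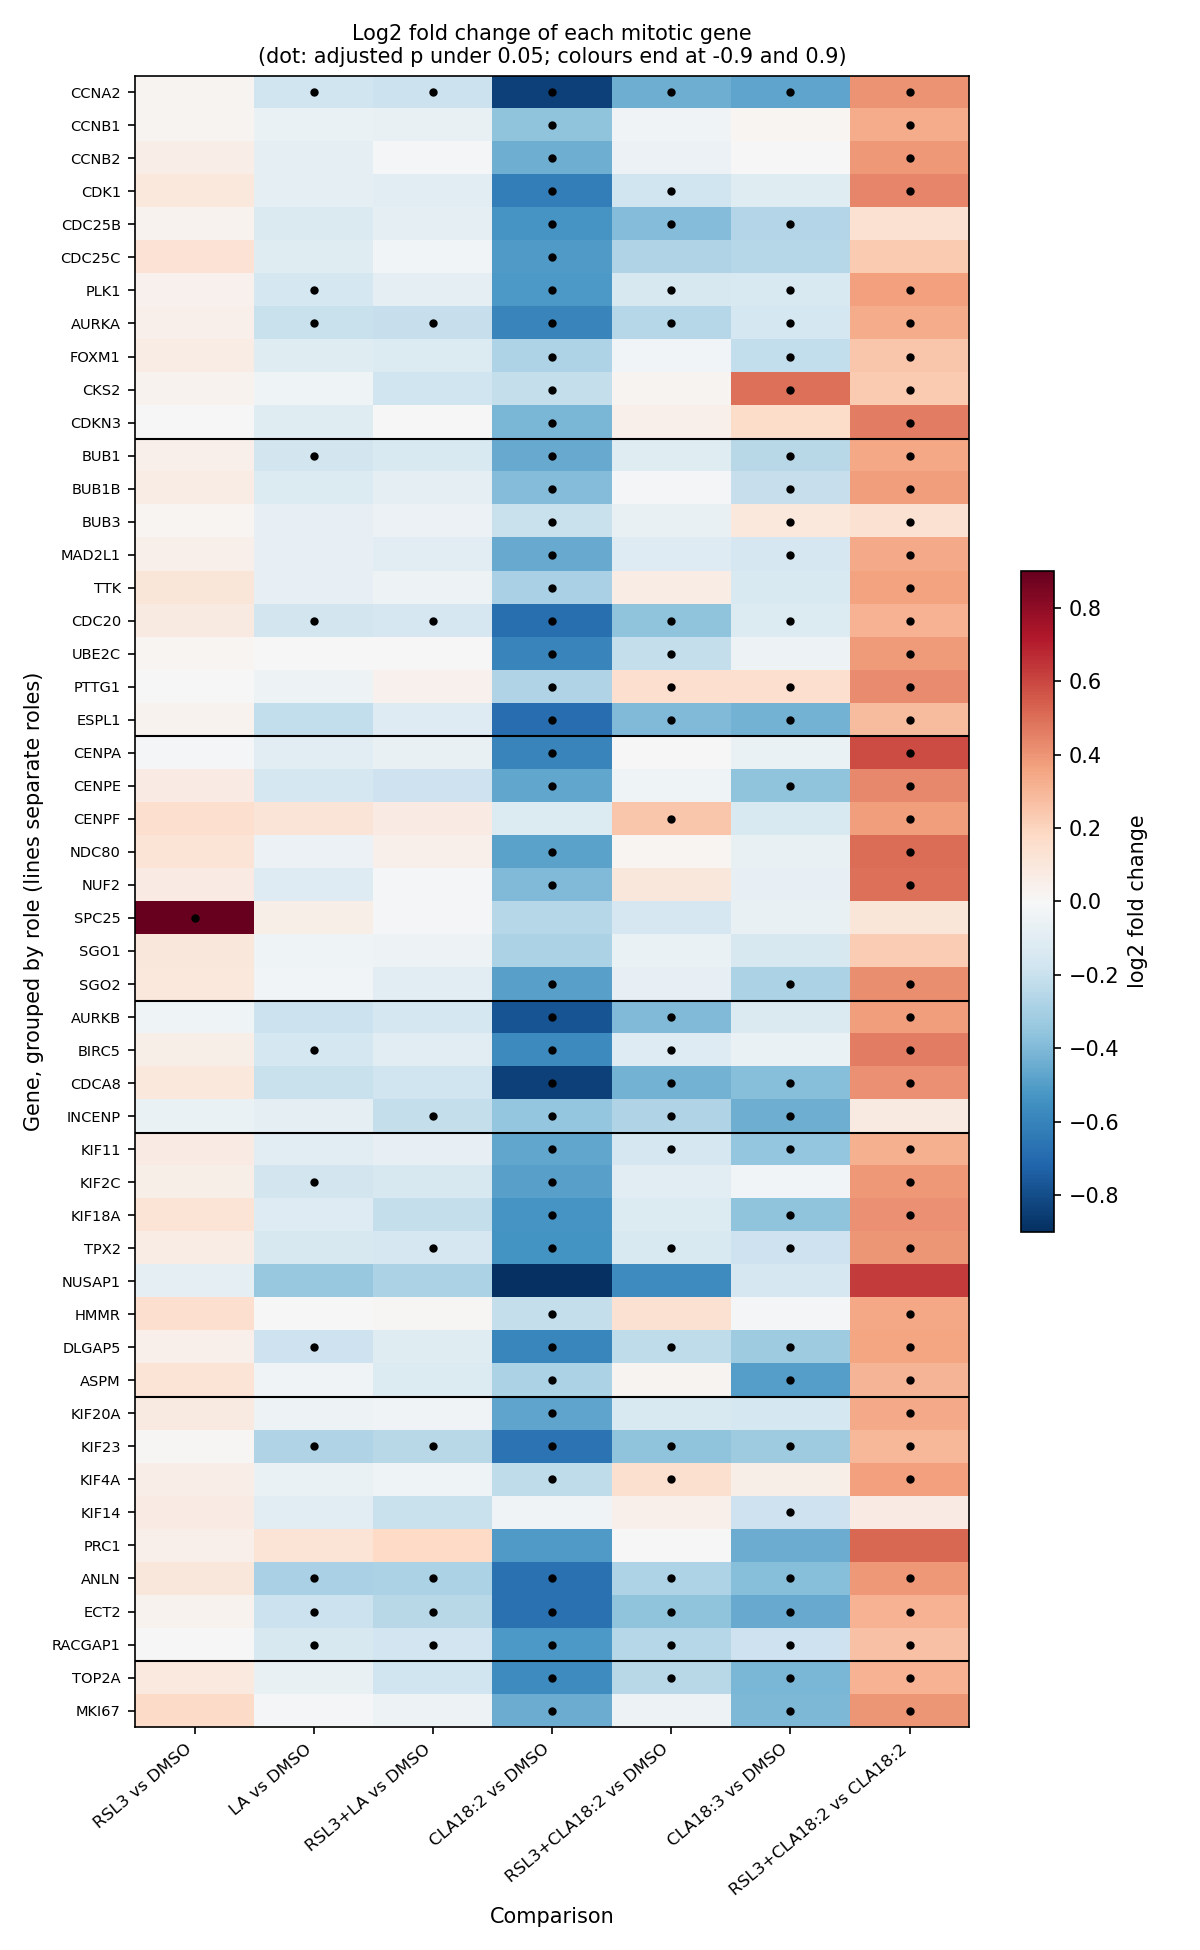
Rows are the 50 mitotic genes in role order, columns are 7 comparisons, colour gives the log2 fold change and a dot marks an adjusted p under 0.05. The CLA18:2 column is blue with 44 dots, and the column of RSL3+CLA18:2 against CLA18:2 is red with 42.

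**Figure D3:**
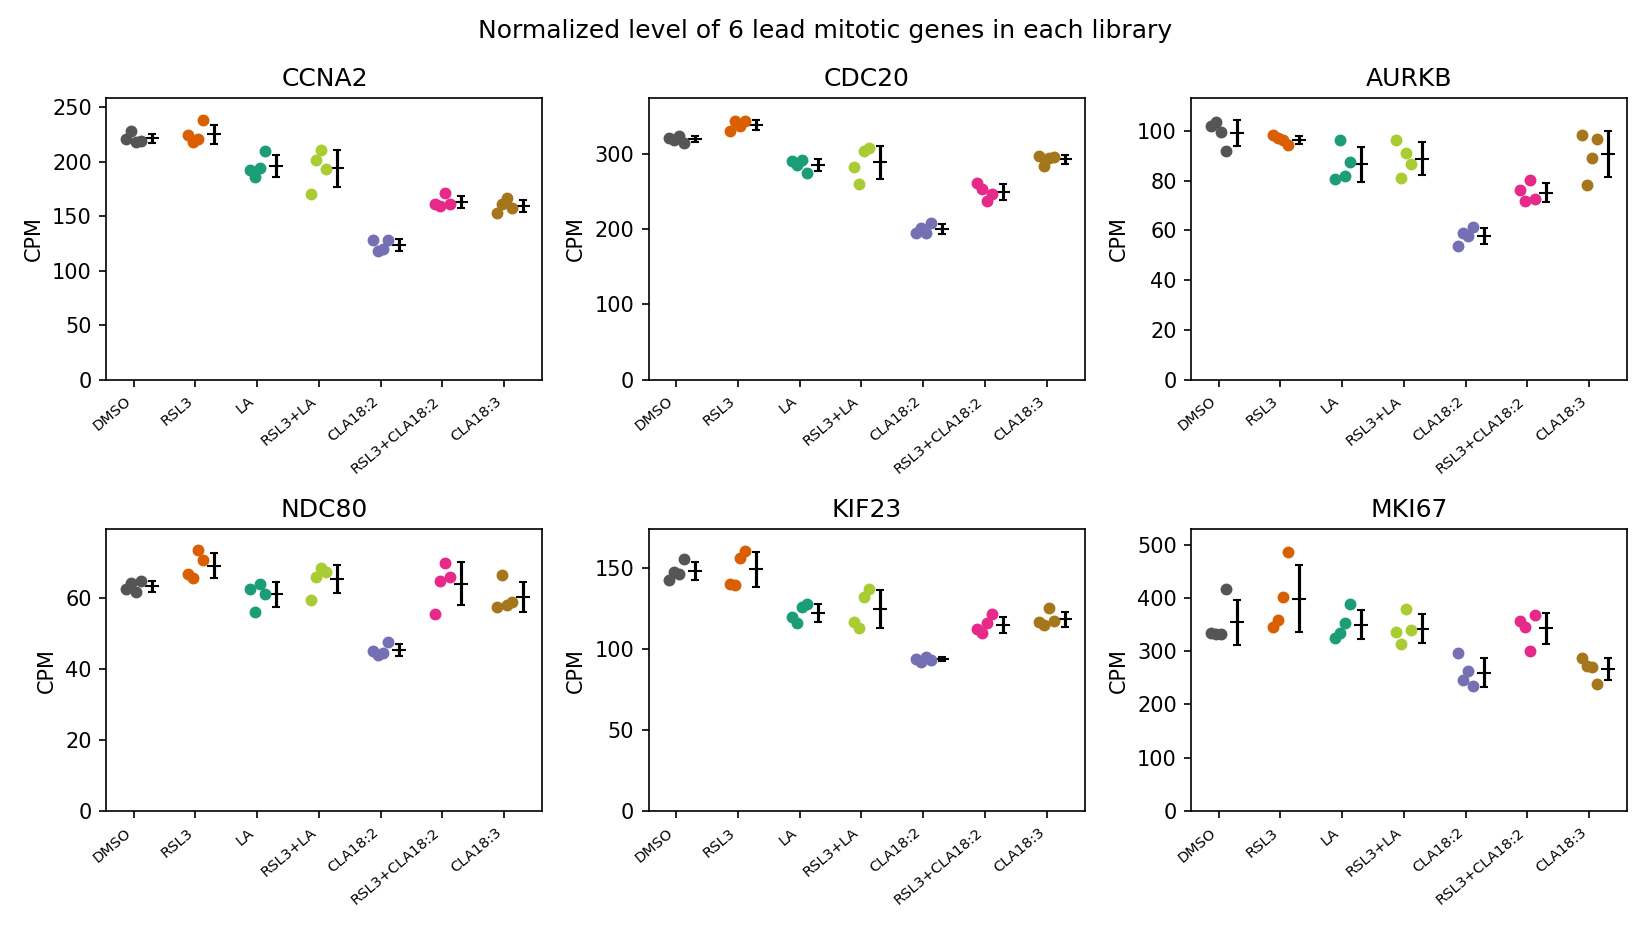
CPM in each library (points) of CCNA2, CDC20, AURKB, NDC80, KIF23 and MKI67, with the mean ± SD (n = 4) of each of the 7 groups. In all 6 genes the CLA18:2 group has the lowest mean, and in MKI67 its libraries, at 235 to 296 CPM, overlap those of CLA18:3, at 239 to 286.

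LA against DMSO shows the methylene-interrupted isomer at the same dose. 12 of 50 mitotic genes fell and 0 rose, with a median of -0.10, against 3.41% of all tested genes that fell and 4.91% that rose. The largest falls were ANLN at -0.29 ± 0.06 (adjusted p = 0.000281), KIF23 at -0.27 ± 0.06 and AURKA at -0.20 ± 0.05. ANLN and KIF23 were the 2 members called in every alternative fit and with any library left out, while AURKA was not called without DMSO replicate 1, CCNA2 not without DMSO replicate 2 or LA replicate 2, and CDC20 not without LA replicate 4. CCNA2 fell by 0.18 ± 0.05, with 193, 186, 194 and 210.0 CPM, just below the DMSO range, and CDC20 fell by 0.16 ± 0.04, with 290.3, 285, 291 and 274 CPM. KIF23 had 119.6, 116, 126 and 128 CPM. PLK1, with 230.4, 237, 236 and 248 CPM, fell by 0.15 ± 0.05 (adjusted p = 0.0434), a call lost without any 1 library other than LA replicate 4 and, like that of CDC20, with no filter on low counts. The other falls called were in ECT2, DLGAP5, KIF2C, BUB1, BIRC5 and RACGAP1. Without LA replicate 2 the count was 5, and without DMSO replicate 1 it was 6. MKI67 (325, 334, 353 and 388 CPM) and TOP2A (305, 296, 332 and 331 CPM) were not called, at -0.02 ± 0.09 and -0.07 ± 0.06.

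CLA18:2 against LA sets the isomers side by side at 80 µM. 45 of 50 mitotic genes were lower with CLA18:2 and 0 were higher, with a median of -0.38, against 14.6% of all tested genes lower and 15.6% higher. The largest differences were CCNA2 at -0.66 ± 0.05 (adjusted p = 8.4e-13), CDCA8 at -0.64 ± 0.07 and UBE2C, the ubiquitin-conjugating enzyme of the anaphase-promoting complex, at -0.60 ± 0.05. UBE2C itself was at 0.00 ± 0.05 in LA against DMSO. The smallest called differences included BUB3 at -0.13 ± 0.03 and KIF4A at -0.17 ± 0.05. The 5 members not called were KIF14 (0.06, 95% interval -0.09 to 0.21), SGO1 (-0.25, 95% interval -0.51 to 0.00), SPC25 (-0.31, 95% interval -1.05 to 0.43), PRC1 (-0.64, -1.39 to 0.12) and NUSAP1 (-0.85, -2.64 to 0.93). KIF4A lost its call without LA replicate 3 or CLA18:2 replicate 4, and KIF4A and BUB3 lost theirs with no filter on low counts. With 1 library left out, CKS2 and ASPM each lost the call in 5 of 8 fits, CENPF in 4, TTK in 3 and CDC25C in 1. Of the 45 calls, 38 held in every alternative and with any library left out. Leaving out 1 library gave 41 to 44 members called.

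RSL3 alone against DMSO asks what RSL3 changed at 10 nM. Of the 50 mitotic genes 1 rose and 0 fell, with a median of 0.06, against 0.178% of all tested genes that rose and 0.0245% that fell. At an unadjusted p under 0.05 there were 2, and no share of all tested genes was taken at that threshold. The estimate was above 0 for 45 members and below 0 for 5. The called member was SPC25, a subunit of the NDC80 complex, at 1.58 ± 0.34 (adjusted p = 0.0321). It stood at 1.84, 1.34, 2.28 and 2.68 CPM in DMSO and at 3.15, 10.9, 1.94 and 8.18 in RSL3, so the groups overlapped and RSL3 replicates 2 and 4 carried the difference. The call was lost without either of those libraries and without any 1 of the DMSO libraries. Over all alternatives and libraries left out, its adjusted p reached 0.357. Of its partners, NDC80 (66.7, 65.7, 73.4 and 70.6 CPM) was at 0.13 ± 0.06 and NUF2 at 0.07 ± 0.08, neither called. CCNA2, with 225, 218, 221 and 238 CPM, and KIF23, with 140.0, 139.9, 156 and 161 CPM, overlapped DMSO. MKI67 had 346, 359, 402 and 486 CPM and was at 0.17 ± 0.09 (adjusted p = 0.851).

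RSL3 added to CLA18:2 asks whether RSL3 changed the levels seen with the conjugated isomer. 42 of 50 mitotic genes were higher in RSL3+CLA18:2 than in CLA18:2 and 0 were lower, with a median of 0.37, against 6.65% of all tested genes higher and 5.24% lower. The CLA18:2 libraries are the same as those set against DMSO and LA above. An offset common to these libraries would therefore enter each of these comparisons, so the rises here and the falls there are not independent. The largest rises were CENPA at 0.59 ± 0.09, from 23.8, 21.1, 21.6 and 21.7 CPM to 33.4, 31.8, 37.2 and 30.2, NDC80 at 0.50 ± 0.06 and NUF2, its partner, at 0.50 ± 0.08. The RSL3+CLA18:2 libraries of CENPA overlapped those of DMSO, at 35.1, 33.2, 32.8 and 32.1 CPM. NDC80 moved from 44.0 to 47.7 CPM in CLA18:2 to 55.5, 64.7, 69.9 and 65.9 in RSL3+CLA18:2. CDK1 rose by 0.44 ± 0.06, to 109, 110.2, 117 and 111 CPM, and PLK1 by 0.37 ± 0.05, to 246, 244, 238 and 229.5. CCNA2 rose by 0.40 ± 0.05 (adjusted p = 1.1e-06) to 161, 159.8, 172 and 161 CPM, which stayed below all DMSO libraries. AURKB rose by 0.38 ± 0.07, to 76.3, 71.8, 80.1 and 72.7 CPM, also below DMSO. By role, all 9 checkpoint and anaphase genes rose, 9 of 11 in mitotic entry, 7 of 8 in spindle assembly, 6 of 8 at the kinetochore, 6 of 8 in cytokinesis, 3 of 4 of the passenger complex, and both TOP2A and MKI67. INCENP (0.08 ± 0.06), KIF14 (0.07 ± 0.07) and CDC25B, an activating phosphatase of CDK1 (0.14 ± 0.05, adjusted p = 0.0741), were among those not called. Leaving out 1 library gave 41 to 43. RSL3+CLA18:2 libraries had 20227 ± 1109 genes with a count, against 22124 ± 514 in CLA18:2 (SD, n = 4). The mitochondrial mRNA share was 0.263%, 0.313%, 1.68% and 0.309% in RSL3+CLA18:2 and 0.312%, 1.48%, 0.425% and 1.01% in CLA18:2. The part of these differences in the result was not tested.

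The interaction tests whether the response to RSL3 differed with the lipid. For CLA18:2, the response to RSL3 was higher in the presence of the lipid than without it for 26 of 50 mitotic genes and lower for 0, with a median of 0.29, against 1.75% higher and 1.80% lower of all tested genes. The largest were CENPA at 0.61 ± 0.13, CDKN3, a phosphatase that acts on CDKs, at 0.46 ± 0.10 and NUF2 at 0.43 ± 0.11, which was not called without CLA18:2 replicate 1 or RSL3 replicate 2. Leaving out 1 library gave 19 (without RSL3 replicate 2) to 29. For the isomers, the response to RSL3 was higher with CLA18:2 than with LA for 38 members and lower for 0, with a median of 0.35, against 2.41% and 1.22% of all tested genes. The largest were CENPA at 0.56 ± 0.13, KIF18A, a kinesin that dampens chromosome movement, at 0.51 ± 0.12 and SGO2 at 0.49 ± 0.10. Leaving out 1 library gave 26 to 37. With LA, 0 members passed the interaction test, and of all tested genes 0% were higher and 0.0245% lower. There were 2 members at an unadjusted p under 0.05, a threshold at which no share of all tested genes was taken.

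RSL3 added to LA asks the same of the other isomer. 0 of 50 mitotic genes were called in RSL3+LA against LA, with a median of 0.01, against 0.0368% of all tested genes higher and 0.0123% lower. DESeq2 and limma voom also called 0. At an unadjusted p under 0.05 the count was 2, and no share of all tested genes was taken at that threshold. RSL3+LA against DMSO, which shares its controls with LA against DMSO, had 9 falls and 0 rises with a median of -0.09, against 4.81% of all tested genes that fell and 5.43% that rose. The largest were ANLN at -0.29 ± 0.06, ECT2 at -0.25 ± 0.05 and KIF23 at -0.25 ± 0.06. ANLN had 277, 281, 304 and 302 CPM in RSL3+LA and 292, 270.4, 313 and 283 in LA, all below the 349 to 372 of DMSO. CCNA2 fell by 0.19 ± 0.05, with 171, 201, 211 and 193 CPM, a call lost without RSL3+LA replicate 1. Against RSL3 alone, LA lowered 20 members and raised 0, with a median of -0.15, against 5.80% lower and 3.78% higher of all tested genes. SPC25, whose RSL3 libraries were uneven, was lowest at -1.60 ± 0.35, followed by ANLN at -0.39 ± 0.06 and KIF18A at -0.33 ± 0.08. That count was 12 without RSL3 replicate 4 and 13 without RSL3+LA replicate 2.

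With RSL3 present, the isomers were again set against each other at the same dose. In RSL3+CLA18:2 against RSL3+LA, 7 mitotic genes (14%) were lower and 3 (6%) higher, with a median of -0.02, against 12.0% lower and 14.1% higher of all tested genes. The share lower was thus near that of all tested genes, and the share higher was below it. CDC25B (-0.31 ± 0.05), ESPL1 (-0.28 ± 0.07) and CCNA2 (-0.25 ± 0.05) were lowest, and CDCA8, AURKB, UBE2C and CDC20 were also lower, CDCA8 not without RSL3+LA replicate 4. KIF14 (0.24 ± 0.07), CKS2 (0.21 ± 0.07) and KIF4A (0.18 ± 0.05) were higher. All 3 of these calls were lost when libraries were scaled by their totals alone, that of KIF14 also without RSL3+CLA18:2 replicate 4 and that of CKS2 without RSL3+LA replicate 3 or RSL3+CLA18:2 replicate 1. For members that were not called, the intervals still limit the difference: CCNB1 at 0.03 (95% interval -0.05 to 0.12), ANLN at 0.01 (-0.10 to 0.12) and MKI67 at 0.00 (-0.18 to 0.18).

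RSL3+CLA18:2 against DMSO had 20 falls and 3 rises, with a median of -0.11, against 16.6% of all tested genes that fell and 18.6% that rose. CCNA2 at -0.44 ± 0.05, CDCA8 at -0.42 ± 0.07 and ESPL1 at -0.40 ± 0.07 fell most, with AURKB at -0.40 ± 0.06. CDC20 (261, 253, 237 and 246 CPM) fell by 0.36 ± 0.04 and KIF23 (113, 110.2, 116 and 122 CPM) by 0.36 ± 0.06, and both lay below the DMSO range in every library. NDC80 was at 0.02 ± 0.06 and BUB1B (84.4, 87.0, 101 and 91.0 CPM) at -0.02 ± 0.05, neither called. CENPF (0.25 ± 0.09), PTTG1, the securin gene (0.15 ± 0.06), and KIF4A (0.14 ± 0.05) rose. Leaving out any 1 DMSO library, or RSL3+CLA18:2 replicate 1, 2 or 4, ended the call of at least 1 of these 3, and library totals alone ended all 3. Over all alternatives and libraries left out, the adjusted p of these 3 reached 0.177. Against RSL3 alone, adding CLA18:2 gave 27 falls and 1 rise with a median of -0.18, against 14.5% and 15.9% of all tested genes. SPC25 at -1.73 ± 0.35, CDCA8 at -0.52 ± 0.07 and CCNA2 at -0.46 ± 0.05 fell most. SPC25 lay near the detection floor and was uneven in RSL3. Its RSL3+CLA18:2 libraries, at 1.78, 1.19, 2.38 and 1.94 CPM, overlapped those of RSL3 and of DMSO. The rise was PTTG1 at 0.16 ± 0.06, a call lost without RSL3 replicate 2 or RSL3+CLA18:2 replicate 1 or 2.

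CLA18:3 was given at 5 µM, a dose at which no other acid was tested. Its values stand beside those of 80 µM CLA18:2 with no test between them, and acid and dose cannot be told apart. Against DMSO, which both share, 26 mitotic genes fell and 3 rose, with a median of -0.16, against 16.7% of all tested genes that fell and 19.1% that rose. ASPM, a spindle pole protein gene, fell most, by 0.49 ± 0.08, from 131, 128, 129 and 147 CPM to 101, 95.2, 98.4 and 85.0, and the groups did not overlap. CCNA2 fell by 0.47 ± 0.05, to 153, 162, 166 and 158 CPM, and ECT2 by 0.46 ± 0.05. KIF11 (117, 111, 104 and 93.9 CPM) fell by 0.35 ± 0.06, TOP2A (253, 269.7, 258 and 214 CPM) by 0.41 ± 0.06 and MKI67 (286, 272, 270.2 and 239 CPM) by 0.41 ± 0.09. CKS2 rose by 0.49 ± 0.06 (adjusted p = 1.8e-07), from 108, 115, 114 and 103 CPM to 149, 168, 145 and 159. With CLA18:2, at a different dose, CKS2 fell, a call lost without CLA18:2 replicate 1 and with the trend over exon length removed. The other rises, PTTG1 at 0.15 ± 0.06 and BUB3 at 0.10 ± 0.03, were less stable. Leaving out any 1 of the 8 libraries ended at least 1 of these calls, and library totals alone ended both. Over all alternatives and libraries left out, the adjusted p reached 0.874 for PTTG1 and 0.683 for BUB3. CCNB1 (284, 258, 263 and 250.1 CPM), CDK1 (116, 114, 125 and 113 CPM), NDC80 (57.6, 66.6, 57.9 and 58.9 CPM) and AURKB (98.5, 78.3, 89.2 and 96.8 CPM) were not called, at 0.01 ± 0.04, -0.11 ± 0.06, -0.07 ± 0.06 and -0.13 ± 0.06, although with library totals alone CDK1 (-0.19) and AURKB (-0.20) were called. In this group, genes with a count numbered 19556 ± 831, against 23340 ± 272 in DMSO (SD, n = 4), and the part of that difference in the result was not tested.

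In CLA18:3 against DMSO, longer members had the lower log2 fold changes. Over the 50 members the Spearman correlation of log2 fold change with exon length was -0.55, against -0.17 over 15718 tested genes with a length, and for CLA18:2 it was 0.19 and 0.10. For the RSL3 by CLA18:2 interaction it was -0.375 over the members and -0.162 over the tested genes. These are correlations across genes, which share libraries and are not replicates. CKS2, the shortest member at 613 bases of exon, rose, while ASPM and MKI67, which has 12807, fell. Not all members followed this: BUB3, with 8300 bases, rose, and CENPF, with 11690, was not called. With the length trend of each library removed, 31 members were called with CLA18:3, against 29 without. CKS2 was still higher, while the calls of PTTG1, MAD2L1 and KIF14 were lost. In the RSL3 by CLA18:2 interaction, CCNB2, AURKA, CDC20 and DLGAP5 lost their calls with this trend removed.

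**Figure D4:**
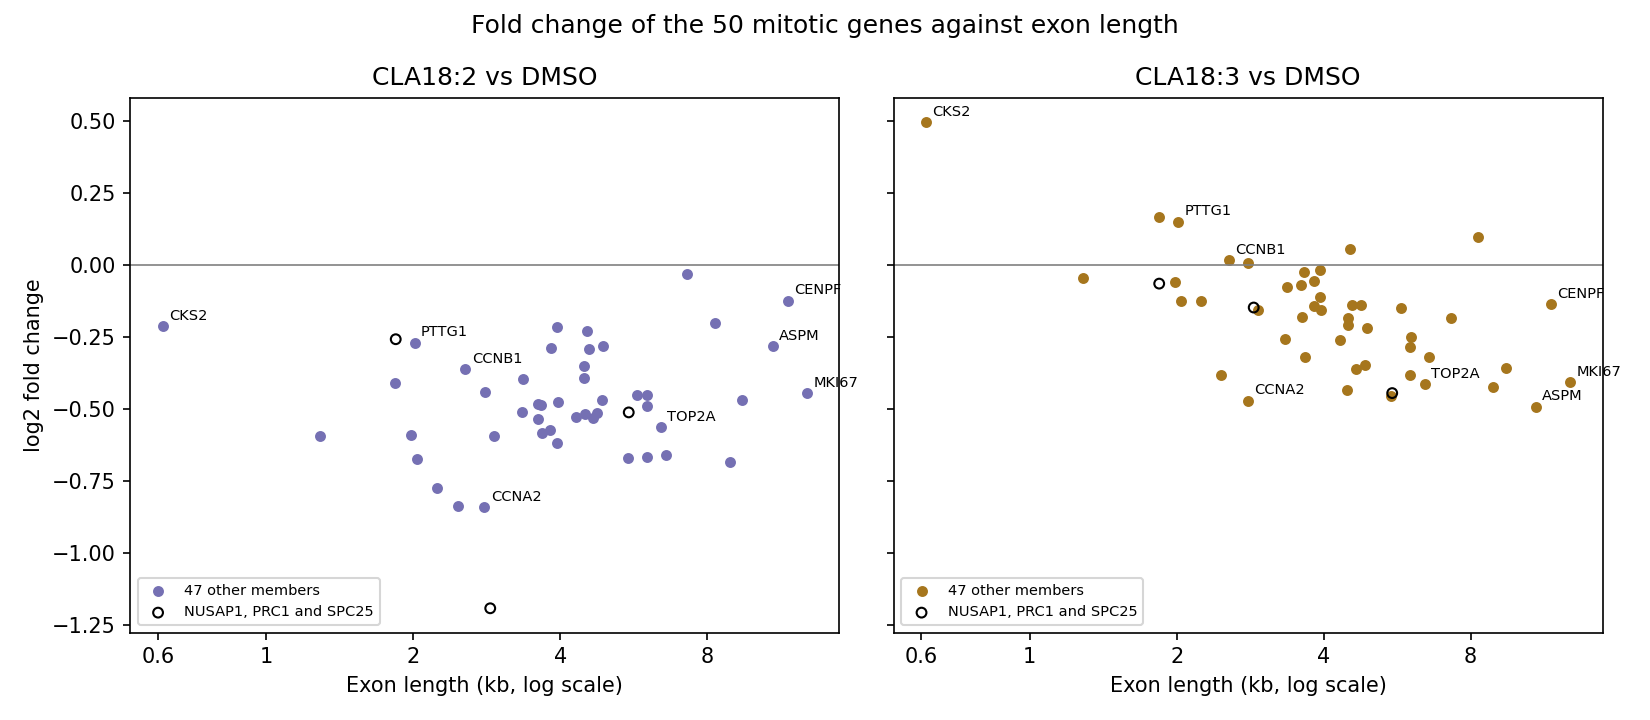
Each point is 1 of the 50 mitotic genes, with exon length on a log horizontal axis and the log2 fold change on the vertical axis, for CLA18:2 (left) and CLA18:3 (right) against DMSO; open points are the near-floor genes NUSAP1, PRC1 and SPC25. On the right CKS2, the shortest, is highest at 0.49, ASPM is lowest at -0.49 and MKI67, the longest, is at -0.41, and on the left all 50 values are below 0.

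The levels of the lead genes in the groups not yet given were as follows. CCNB1 had 268, 262, 264 and 267 CPM in RSL3, 239, 250.4, 254 and 257 in LA, 243, 249.6, 243 and 262 in RSL3+LA and 258, 260.2, 263 and 238 in RSL3+CLA18:2. All of these lay above its CLA18:2 libraries, as they did for CDK1, with 120.0, 128, 141 and 150.4 CPM in RSL3, 116, 111, 128 and 119 in LA and 118, 115, 116 and 122 in RSL3+LA. PLK1 had 262, 275, 261 and 289 CPM in RSL3, 238, 236, 269 and 258 in RSL3+LA and 254, 216, 242 and 249.9 in CLA18:3. FOXM1 had 218, 203, 209.8 and 226 CPM in RSL3, 194, 189, 193 and 185 in LA, 194, 164, 202 and 192 in RSL3+LA, 195, 197, 199 and 213 in RSL3+CLA18:2 and 186, 172, 167 and 179 in CLA18:3. RSL3+LA replicate 2 and CLA18:3 replicates 2 and 3 reached into the CLA18:2 range of FOXM1, while all these PLK1 libraries stayed above that of PLK1. CDC20 had 329.5, 343, 336 and 344 CPM in RSL3, 282, 259.9, 303 and 308 in RSL3+LA and 297, 284, 294 and 296 in CLA18:3. BUB1B had 97.5, 91.4, 97.0 and 98.6 CPM in RSL3, 86.6, 80.6, 86.1 and 84.0 in LA, 83.5, 83.6, 90.4 and 87.6 in RSL3+LA and 81.3, 81.3, 82.0 and 72.7 in CLA18:3. CLA18:3 replicate 4 was the 1 library of these BUB1B groups within the CLA18:2 range.

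At the kinetochore, NDC80 had 62.6, 56.2, 64.0 and 61.2 CPM in LA and 59.5, 66.0, 68.4 and 67.4 in RSL3+LA, ranges that overlapped DMSO. AURKB had 98.3, 97.1, 96.2 and 94.5 CPM in RSL3, 80.5, 96.2, 81.7 and 87.6 in LA and 96.3, 81.0, 91.2 and 86.6 in RSL3+LA. KIF11 had 133, 137, 149 and 152 CPM in RSL3, 122, 122, 127 and 134 in LA, 122, 139.6, 129.8 and 124 in RSL3+LA and 118, 121, 119.6 and 131 in RSL3+CLA18:2. These AURKB and KIF11 libraries stood above those of CLA18:2, while CLA18:3 replicate 4, at 93.9 CPM, lay within the CLA18:2 range of KIF11. KIF23 had 116, 113, 132 and 137 CPM in RSL3+LA and 117, 115, 125 and 118 in CLA18:3, all below DMSO. TOP2A had 337, 327, 358 and 386 CPM in RSL3, 294, 278, 284 and 314 in RSL3+LA and 275, 279.6, 258 and 299.5 in RSL3+CLA18:2. MKI67 had 335, 313, 379 and 340.2 CPM in RSL3+LA and 356, 344, 301 and 369 in RSL3+CLA18:2. All these TOP2A and MKI67 libraries stood above those of CLA18:2. In CLA18:3, TOP2A replicate 4, at 214 CPM, lay below every CLA18:2 library, and the MKI67 ranges overlapped.

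Other mitotic genes were counted in 7 lists with 111 tested genes. With CLA18:2 against DMSO 73 of 111 fell and 5 rose, with a median of -0.36, and in RSL3+CLA18:2 against CLA18:2 65 were higher and 0 lower. With CLA18:3 53 fell and 15 rose, where 16.7% of all tested genes fell and 19.1% rose, and with LA 15 fell and 0 rose, where 3.41% of all tested genes fell and 4.91% rose. For CLA18:2 against DMSO, the shares of all tested genes were 18.6% lower and 20.1% higher, and for RSL3+CLA18:2 against CLA18:2 6.65% higher and 5.24% lower. In each list the genes named are, in each direction, those called with the smallest p, not the largest fold change. All 8 condensin genes fell with CLA18:2, among them SMC4 at -0.39 ± 0.05 and NCAPG2 at -0.36 ± 0.04, and all 8 were higher in RSL3+CLA18:2 than in CLA18:2. Of 17 other mitotic kinases and regulators 16 fell and 0 rose, PKMYT1, which inhibits CDK1, by 1.19 ± 0.08 and GTSE1 by 0.57 ± 0.05. Of 16 other spindle and cytokinesis genes 14 fell and 0 rose, among them KIF18B (-0.91 ± 0.06) and TACC3 (-0.56 ± 0.04), and of 30 other kinetochore genes 20 fell and 0 rose, among them SPDL1 (-0.72 ± 0.04) and HJURP (-0.65 ± 0.05). The 17 genes of the anaphase-promoting complex and its partners had a median of 0.04, and their counts in each direction were near the shares of all tested genes: 3 rose, among them ANAPC10 (0.41 ± 0.14) and ANAPC16 (0.22 ± 0.08), and 3 fell, among them the inhibitor FBXO5 (-1.07 ± 0.07) and UBE2S (-0.62 ± 0.08). Of 13 cohesin genes 6 fell, among them CDCA5 (-0.71 ± 0.04), which protects cohesin from release, and ESCO2 (-0.69 ± 0.08), and MAU2 rose by 0.26 ± 0.06.

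Genes of the complexes that act at such promoters were counted too. Of 10 MuvB, B-MYB and pocket protein genes, 6 fell and 1 rose with CLA18:2: MYBL2, which encodes B-MYB, fell by 0.83 ± 0.06 and TFDP1, the E2F partner, by 0.47 ± 0.04, while the MuvB subunit LIN54 rose by 0.61 ± 0.08. With RSL3 added to CLA18:2, MYBL2 rose by 0.53 ± 0.06 and TFDP1 by 0.27 ± 0.04. Genes of earlier cell cycle phases also fell with CLA18:2. Of 37 DNA replication genes 32 fell, UHRF1 by 0.98 ± 0.06 and the origin licensing factor CDC6 by 0.78 ± 0.04, and 1, PRIM2, rose by 0.31 ± 0.07. Of 13 G1/S factors 9 fell, CDK2 by 0.92 ± 0.06 and E2F1 by 0.69 ± 0.06, and 2 rose, E2F7 by 0.40 ± 0.05 and E2F3 by 0.15 ± 0.06. Among 8 CDK inhibitors and arrest genes, CDKN1A (p21) rose by 0.48 ± 0.04 and GADD45A by 0.23 ± 0.08, and 4 fell, among them CDKN2C (-0.69 ± 0.06) and GADD45B (-0.72 ± 0.08). With RSL3 added to CLA18:2, CDKN1A fell by 0.33 ± 0.04, and with CLA18:3 it rose by 0.40 ± 0.04. The mean of GADD45A was 139 CPM in DMSO, 163 in CLA18:2, 159 in RSL3+CLA18:2 and 243 in CLA18:3. Of all tested genes, 20.1% rose and 18.6% fell with CLA18:2, and the 2 rises among these 8 genes were near that share.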

How the data were processed

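The authors deposited raw read counts per gene for 28 libraries made from total RNA, and per the labels the reads were paired-end and from an Illumina instrument. HISAT, SAMtools, featureCounts and DESeq2 with the build hg38 were named in the submitters' processing notes. Versions, annotation and strand setting are not given in the sources used here, so reads of overlapping or antisense genes may not be separable. The design text gives fatty acid doses in µM and some labels in mM, and µM is used.

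The counts were filtered with filterByExpr of edgeR 4.0.16 in R 4.3.3, scaled by trimmed mean of M values factors and fitted with 1 mean per group over all 28 libraries. Contrasts were tested by quasi-likelihood F tests of edgeR, adjusted by Benjamini-Hochberg over 16325 genes at 0.05. The SE was taken as |log2 fold change| over the root of F, and intervals are at 95%. The p-values measure the spread between these cultures, pooled over groups whose spread differed. The pipeline was tested on simulated data. The members and lists were chosen with earlier results of these data known.

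All 50 members are counted, and 13 lead members are given in every library. Also named are the 3 largest called changes each way in each comparison, members called against the majority, members not called where 5 or fewer, and 2 genes each way of each list by smallest p. Other members were named after their values were seen. Positions and exon lengths are from GENCODE release 29 on GRCh38, and promoters from RefSeq (GRCh38.p14). Marker lists for mesenchymal, epithelial and blood cells checked the line.

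Alternatives were DESeq2-style size factors, library totals alone, no filter, DESeq2 1.42.0, voom of limma 3.58.1, only the groups compared, a replicate block, each library left out, and, chosen after seeing the data, the exon length trend removed. Replicate numbers were checked on 7335 genes with a mean of at least 20 CPM. Of 21 group pairs, only RSL3 with RSL3+CLA18:2 had correlations of residuals over 0.1 in all 4 numbers, a pairing that comes from the data, not the labels. Replicate libraries differed by more than sampling noise, with a chi-square per degree of freedom of 2.36 to 26.6 in 42 pairs. Plots were made with matplotlib 3.10.9 under Python 3.11.15.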

Additional observations from a re-analysis of the deposited data

Results flagged for a closer look

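In 6 of 98 groups of 4 libraries checked for the 13 lead genes and SPC25, 1 library stood far from the other 3; chance gives about 1 in 20. CCNA2 was 171.5 CPM in RSL3+CLA18:2 replicate 3, against 159.8 to 161.4 in the others. BUB1B was 90.47 CPM in DMSO replicate 3, against 92.12 to 92.21, and 72.67 CPM in CLA18:3 replicate 4, against 81.32 to 82.01. NDC80 was 66.6 CPM in CLA18:3 replicate 2, against 57.6 to 58.94. TOP2A was 237.9 CPM in CLA18:2 replicate 1, against 219 to 220.8. MKI67 was 416.7 CPM in DMSO replicate 4, against 331.4 to 334.2.

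The response to RSL3 differed between cultures with CLA18:2 and cultures without it for 9 lead genes, by the interaction test of edgeR. The log2 differences were 0.377 for CCNA2, 0.309 for CCNB1, 0.347 for CDK1, 0.332 for PLK1, 0.233 for CDC20, 0.311 for BUB1B, 0.374 for NDC80, 0.418 for AURKB and 0.286 for KIF23. Of these, CDC20 and KIF23 lost the call in some alternatives.

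The response to RSL3 also differed between CLA18:2 and LA for all 13 lead genes. Over all 50 members it was higher for 38, against 2.41% higher and 1.22% lower of all tested genes. The log2 differences were 0.415 for CCNA2, 0.336 for CCNB1, 0.452 for CDK1, 0.297 for PLK1, 0.272 for FOXM1, 0.300 for CDC20 and 0.345 for BUB1B. They were 0.401 for NDC80, 0.343 for AURKB, 0.293 for KIF11, 0.271 for KIF23, 0.423 for TOP2A and 0.433 for MKI67. FOXM1, AURKB, KIF11, KIF23 and MKI67 lost the call in some alternatives. Both interaction tests use the same CLA18:2 and RSL3+CLA18:2 libraries.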

How the results depend on the processing

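Of the 15 counts of members called, 10 kept within 1.5 times their value under every alternative and with any library left out, and no count changed direction. The exceptions follow. RSL3 against DMSO gave 0 members under limma voom, with only the groups compared and with the replicate block, and 0 to 1 with a library left out. LA against DMSO gave 19 and RSL3+LA against DMSO 17 with only the groups compared; LA against DMSO gave 5 to 11 with a library left out. RSL3+LA against RSL3 gave 13 with library totals alone and 12 to 22 with a library left out. The RSL3 by LA interaction gave 1 with no filter on low counts. The cause was not tested. In the replicate block for RSL3+CLA18:2 against RSL3, where the residuals paired, 29 members were called against 28 without, and the block changed no other count by more than 1.5 times except RSL3 against DMSO. In CLA18:2 against DMSO 43 of 44 calls held in every fit, and in RSL3+CLA18:2 against CLA18:2 39 of 42 did. Fewer held elsewhere: 16 of 26 in the RSL3 by CLA18:2 interaction and 24 of 38 in the interaction of RSL3 with the isomers. In CLA18:2 against LA 38 of 45 held. In RSL3+LA against RSL3 10 of 20 held, and in RSL3+CLA18:2 against RSL3+LA 6 of 10. Scaling moved the median of all genes by at most 0.074. Low counts limit NUSAP1, PRC1 and SPC25.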
